A study of Homo sapiens with 12 samples.

Results

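PRDX1 and 7 genes around it on human chromosome 1 were followed through RNA-seq of cells in which activators or repressors were brought to a family of retroviral long terminal repeats (LTRs). The genes were taken by symbol from a table of 26641 genes and, from one end of the interval to the other, are HPDL, MUTYH, TOE1, TESK2, MMACHC, PRDX1, AKR1A1 and NASP. These 8 were chosen by their place next to PRDX1, and PRDX1 itself was selected on its difference between recruitment and control. Values of that comparison are therefore given for the 8 genes as a description. Where calls among the 8 are listed, they are set beside the share of all genes and are not used as evidence.

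The cells were NCCIT, a human embryonal carcinoma line that resembles cells of the early embryo. All 6 lines carried a doxycycline-inducible nuclease-dead Cas9 of S. pyogenes, fused to VPR, an activation domain (dCas9-VPR), or to KRAB, a repression domain (dCas9-KRAB), and each also carried 1 of 3 arrays of 12 guides. The LTR5HS Sp array matches LTR5HS, the LTRs of the youngest HERVK retroviruses, and its scaffold is bound by the fusion, so it is called recruitment. With this array the paper also reports dCas9 at part of the related repeats LTR5A and LTR5B and at some sites outside LTRs. The LTR5HS Sa array has guides of the same sequences on a scaffold from S. aureus, which this Cas9 does not bind, and the nontarget Sp array has guides without a match in the human genome. Both are controls. Fusions and arrays were integrated with a transposon and kept by drug selection, and whether a line descends from 1 clone is not given in the sources used here. Every line, controls included, was exposed to doxycycline for 4 days and gave 2 replicate libraries of polyA RNA.

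Peroxiredoxins remove hydrogen peroxide by oxidising a cysteine of their own, and thioredoxin then reduces that cysteine again. PRDX1 is the abundant cytosolic member and is highly expressed in many proliferating cells. The genes beside it share a stretch of the chromosome and not a pathway: AKR1A1 is an NADPH-dependent aldehyde reductase, MMACHC frees and carries cobalamin (vitamin B12), TESK2 is a kinase that phosphorylates cofilin, HPDL is a mitochondrial dioxygenase of coenzyme Q synthesis, MUTYH is a DNA glycosylase that removes adenine paired with oxidised guanine, TOE1 is a nuclear deadenylase, and NASP is a histone chaperone.

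The LTR5HS guides, 16 bases each, were searched with an NGG motif against hg38 to see where the fusion could be placed near these genes. There were 7 exact matches at the locus, in 2 clusters 14.1 kb apart, and 5 of the 12 guides had at least 1. The first cluster, chr1:45513835-45514319, held 3 matches within 485 bp and lay in an intron of PRDX1 outside the exons of every annotated transcript. The second, chr1:45528426-45528917, held 4 matches within 492 bp, upstream of the canonical PRDX1 start and inside an intron of a longer PRDX1 transcript. The matched sequences are shown because they are the exact matches found between the guide array and this interval, with the motif next to each match in capitals. Matches of LTR5HS-7 and LTR5HS-1 were present in both clusters, those of LTR5HS-9 in the first alone, and those of LTR5HS-4 and LTR5HS-8 in the second alone.
LTR5HS-7: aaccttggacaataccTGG
LTR5HS-9: gacattccattgcccaGGG
LTR5HS-1: tactaagggaactcagAGG
LTR5HS-4: agcccgacacccgtaaAGG
LTR5HS-8: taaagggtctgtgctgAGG
No other cluster of matches was found within 1000 kb before HPDL, and the nearest beyond NASP was 792 kb from the second cluster. Sites with mismatches were not searched, the repeat class of the 2 clusters was not looked up, and matching does not measure binding.

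By GENCODE annotation on hg38, PRDX1 (ENSG00000117450) runs from 45510914 to 45542732 on the minus strand of chromosome 1, and its canonical start lies 6.5 kb downstream of the nearest match of the second cluster and 7.6 kb upstream of the first. MMACHC (ENSG00000132763), from 45500300 to 45513382 on the plus strand, starts 13.5 kb before the first cluster and runs towards it. TESK2 (ENSG00000070759), from 45343883 to 45491163 on the minus strand, starts 22.7 kb from it and runs away. AKR1A1 (ENSG00000117448), from 45550543 to 45570049 on the plus strand, starts 21.9 kb beyond the second cluster and runs away from it, as does NASP (ENSG00000132780), from 45583846 to 45618904, with its start at 55.1 kb. The farther genes are HPDL (ENSG00000186603), from 45326895 to 45328710 on the plus strand, MUTYH (ENSG00000132781), from 45329163 to 45340893 on the minus strand, and TOE1 (ENSG00000132773), from 45340052 to 45343973 on the plus strand. Their starts lie 186.9, 173.9 and 173.7 kb from the nearest match. Annotated exons of PRDX1 and MMACHC, on opposite strands, overlap by 501 bp at the end of PRDX1, 364 bp of it in exons of the canonical transcripts. Those of MUTYH and TOE1 overlap by 491 bp at their starts, with 0 bp in canonical exons, and those of TOE1 and TESK2 by 91 bp at their ends, all of it canonical. The strand setting of the counting is not given in the sources used here, so reads from these stretches cannot be told apart.

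The 12 libraries held between 13601701 and 69797411 counts. The deepest was dCas9-KRAB nontarget Sp replicate 2, and the next deepest held 24840708. Levels are given as CPM, counts per 1000000 of the library, scaled by TMM, a normalization to the bulk of genes, where 3 counts corresponded to between 0.0462 and 0.233 CPM. All 8 genes passed the filter on low counts with both fusions. The lowest count of any of them was 9, for HPDL in dCas9-KRAB LTR5HS Sa replicate 2. The cell type was checked on 9 embryonal carcinoma markers, which were detected in every library but at different levels with the 2 fusions: their summed level was between 960 and 1670 CPM with dCas9-VPR and between 3990 and 4930 CPM with dCas9-KRAB. Markers of yolk sac endoderm summed to at most 5.05 CPM, trophoblast markers to at most 30.9 CPM and neural markers to at most 331 CPM. GATA3 alone reached 30.7 CPM and TUBB3 alone 327 CPM, so the trophoblast and neural sums were nearly these single genes. Mesenchymal markers summed to 2880 and 3000 CPM with dCas9-VPR recruitment and to at most 97.6 CPM in the other libraries. In bulk RNA, fewer cells of a type and less RNA per cell cannot be told apart.

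Levels per length in the control lines differed widely between the 8 genes. PRDX1 was the highest, at 552 ± 141 CPM per kb (SD, n = 8 libraries), followed by NASP at 240 ± 51.8 and AKR1A1 at 132 ± 32.1, and the ranges of these 3 did not overlap. MUTYH (20.7 ± 5.49), TESK2 (13.7 ± 2.20) and TOE1 (13.4 ± 2.26 CPM per kb) came next, and the range of each overlapped those of the other two. MMACHC, at 9.40 ± 0.74 CPM per kb, lay below all of them, with a highest value of 10.4 against a lowest of 10.6 for TOE1 and 10.6 for TESK2. HPDL was the lowest, between 0.317 and 1.79 CPM per kb. The SD of PRDX1, NASP, AKR1A1, MUTYH and HPDL included a difference between the fusions that is given further on.

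**Figure D1:**
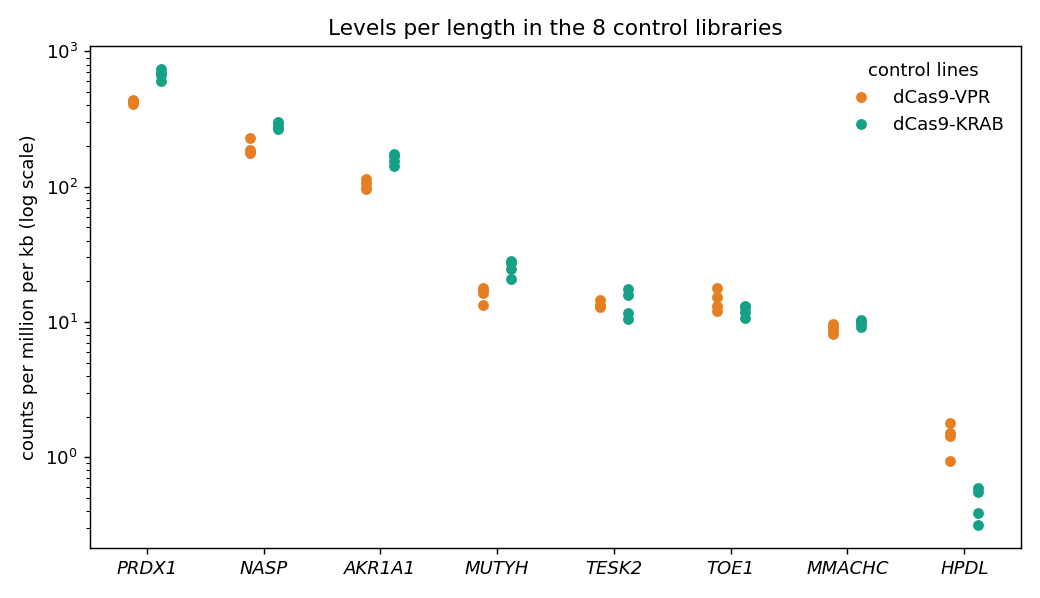
Levels of the 8 genes in CPM per kb of the deposited gene length (log axis), in the 8 control libraries, with each point 1 library and the fusions in separate colours. PRDX1 sits between 412 and 745 CPM per kb and HPDL between 0.317 and 1.79, and the dCas9-KRAB points of PRDX1, NASP, AKR1A1 and MUTYH lie above all dCas9-VPR points of the same gene.

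The first comparison asks how the genes around the guide matches respond when the activator is recruited. With dCas9-VPR, PRDX1 had 2458 and 2119 CPM in the recruitment libraries. Its controls had 579 and 586 CPM with LTR5HS Sa and 569 and 555 CPM with nontarget Sp. Both recruitment libraries lay far above all 4 controls, which themselves spanned a narrow range. The means were 2288 ± 239.9 CPM (SD, n = 2) and 572 ± 13.5 CPM (SD, n = 4), a 4.02-fold difference with a log2 fold change of 2.01 (SE 0.09).

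AKR1A1, the next start beyond the second cluster, had 483 and 447 CPM with dCas9-VPR recruitment. In control it had 154 and 169 CPM with LTR5HS Sa and 153 and 179.7 CPM with nontarget Sp. Again no control library came near the recruitment libraries. The log2 fold change of AKR1A1 was 1.51 (SE 0.10), which is 2.86-fold.

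MMACHC, which runs towards PRDX1 from the other strand, lay the other way. It had 14.3 and 16.3 CPM with dCas9-VPR recruitment, against 23.2 and 27.6 CPM with LTR5HS Sa and 24.6 and 26.4 CPM with nontarget Sp. The recruitment libraries were below every control library, with a log2 fold change of -0.72 (SE 0.14). Beside the shared exon with PRDX1, the part of overlapping reads in this value was not tested.

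TOE1 and MUTYH had small negative differences with dCas9-VPR. TOE1 had 26.1 and 29.0 CPM in the recruitment libraries and between 29.1 and 42.9 CPM in the controls, with a log2 fold change of -0.33 (SE 0.18). MUTYH had 26.8 and 31.0 CPM against 30.5 to 40.5 CPM, with -0.34 (SE 0.15), and its ranges overlapped. With DESeq2 size factors the TOE1 libraries overlapped as well.

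TESK2, NASP and HPDL overlapped between the groups with dCas9-VPR. TESK2 had 40.3 and 46.2 CPM with recruitment and 39.8 to 44.7 CPM in control. NASP had 517 and 603 CPM against 581 to 759 CPM. HPDL had 2.54 and 2.77 CPM against 1.70 to 3.23 CPM. Their log2 fold changes were 0.07 (SE 0.11), -0.19 (SE 0.14) and 0.06 (SE 0.29).

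Of the 8 genes, 3 were among the calls with dCas9-VPR, meaning an adjusted p-value under 0.05: PRDX1 and AKR1A1 were higher and MMACHC lower. Over all 16271 genes tested, 28% were called in this comparison (4548 genes, 2552 higher and 1996 lower). Recruitment and control libraries did not overlap for 4 of the 8 genes, against 50% of all genes tested. Since PRDX1 was selected on this comparison, nothing is read from these shares or from the calls of the 8 genes, here and under alternatives. The median log2 fold change was -0.063 over the 8 genes and -0.0189 over all genes tested. PRDX1 ranked 796 and AKR1A1 1143 from the top of the tested genes by log2 fold change. The call of MMACHC was lost without dCas9-VPR LTR5HS Sp replicate 1, with a log2 fold change of -0.63. MUTYH was called without dCas9-VPR nontarget Sp replicate 1 and when LTR5HS Sa was the only control.

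**Figure D2:**
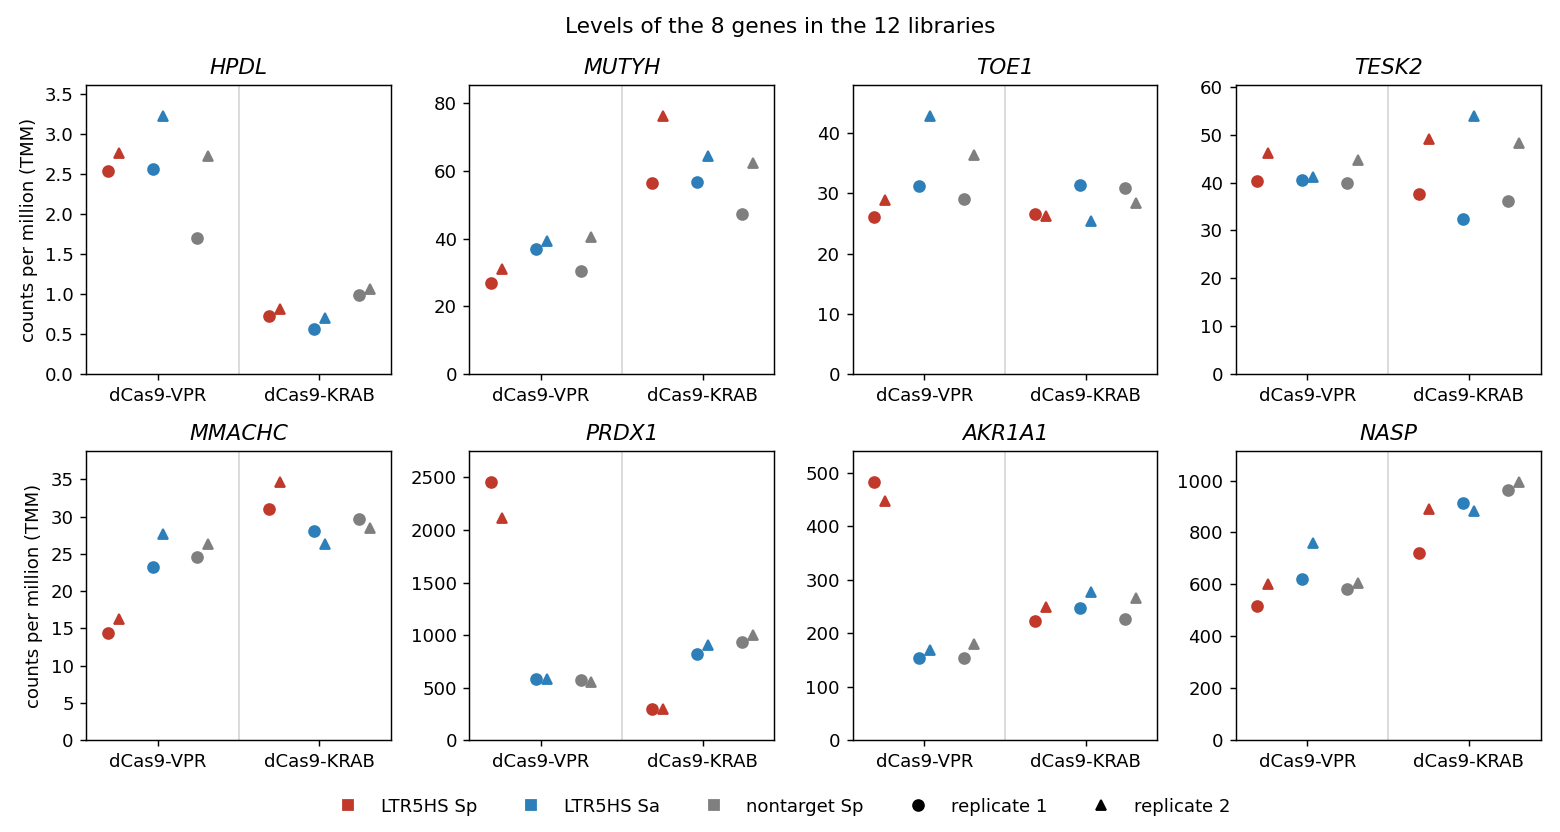
CPM of each of the 8 genes in all 12 libraries, in the order of the genes along the chromosome, with guide arrays in colour and replicates by symbol (linear axes that start at 0). With dCas9-VPR the LTR5HS Sp points of PRDX1 (2119 and 2458) and AKR1A1 (447 and 483) stand above all others, and with dCas9-KRAB those of PRDX1 (293 and 295) lie below all others.

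The second comparison asks the same with the repressor. PRDX1 had 295 and 293 CPM in the dCas9-KRAB recruitment libraries. The controls had 817 and 904 CPM with LTR5HS Sa and 934 and 1004 CPM with nontarget Sp. Every control library was above both recruitment libraries by a wide margin. The means were 294 ± 1.39 CPM (SD, n = 2) and 915 ± 77.3 CPM (SD, n = 4), 3.09-fold apart, with a log2 fold change of -1.63 (SE 0.11).

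AKR1A1 had 222 and 249.7 CPM with dCas9-KRAB recruitment and between 226 and 277 CPM in control. The groups overlapped, and the log2 fold change was -0.09 (SE 0.12). AKR1A1 thus overlapped control here and not with dCas9-VPR, a difference between the fusions that was not tested.

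MMACHC had 31.1 and 34.7 CPM with dCas9-KRAB recruitment, above its 4 controls of 26.3 to 29.7 CPM. The log2 fold change was 0.24 (SE 0.12) and was not called. Its direction was opposite to that of PRDX1 with both fusions.

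The other 5 genes overlapped between recruitment and control with dCas9-KRAB. NASP had 722 and 892 CPM against 883 to 995 CPM, with a log2 fold change of -0.21 (SE 0.11). MUTYH had 56.6 and 76.3 CPM against 47.3 to 64.3 CPM, with 0.22 (SE 0.16). TOE1 had 26.5 and 26.3 CPM against 25.5 to 31.4 CPM, with -0.13 (SE 0.13). TESK2 and HPDL had log2 fold changes of 0.04 (SE 0.21) and -0.16 (SE 0.38), and HPDL, with 9 to 69 counts in these 6 libraries, was the least precise.

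PRDX1 was the 1 gene of the 8 called with dCas9-KRAB, where 2.77% of the 15520 genes tested were called (430 genes, 129 higher and 301 lower). Recruitment and control libraries did not overlap for 2 of the 8 genes, PRDX1 and MMACHC, against 23.1% of all genes tested. The median log2 fold change was -0.11 over the 8 genes and 0.000596 over all genes tested. PRDX1 ranked 240 from the bottom by log2 fold change. It was selected on its difference between recruitment and control, so nothing is read from this call or these shares either.

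Around the 8 genes, 9 further genes of the count table start within 500 kb of the guide matches, of 30 genes annotated in that window. None of these 9 was called with dCas9-KRAB, against 2.77% of all genes tested, where their log2 fold changes ran from -0.71 to 0.40 and 0 of them had an unadjusted p under 0.05 or a call by DESeq2, and 1 was called with dCas9-VPR, against 28% of all. That gene, CCDC17, of unclear function, starts 95.1 kb beyond the second cluster and had a log2 fold change of 0.74 (SE 0.24, adjusted p = 0.0483 in edgeR's quasi-likelihood test). Its call was near the threshold and was lost in 11 of 16 alternatives, with an adjusted p of 0.29 without dCas9-VPR LTR5HS Sp replicate 1. CCDC163P, annotated as CCDC163 between TESK2 and MMACHC and starting 13.8 kb from the first cluster, had log2 fold changes of 0.08 (SE 0.20) with dCas9-VPR and -0.00378 (SE 0.20) with dCas9-KRAB. GPBP1L1, at 157.6 kb, had 0.28 (SE 0.11) with dCas9-VPR and was called only in the fit of all 12 libraries, and MAST2, at 274.7 kb, had 0.20 (SE 0.12) and was called only when LTR5HS Sa was the only control. Side by side, CCDC163P, TESK2 and MMACHC start within 22.7 kb of a cluster and AKR1A1 21.9 kb from one, and their log2 fold changes with dCas9-VPR were 0.08, 0.07, -0.72 and 1.51. A relation with distance was not tested.

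**Figure D3:**
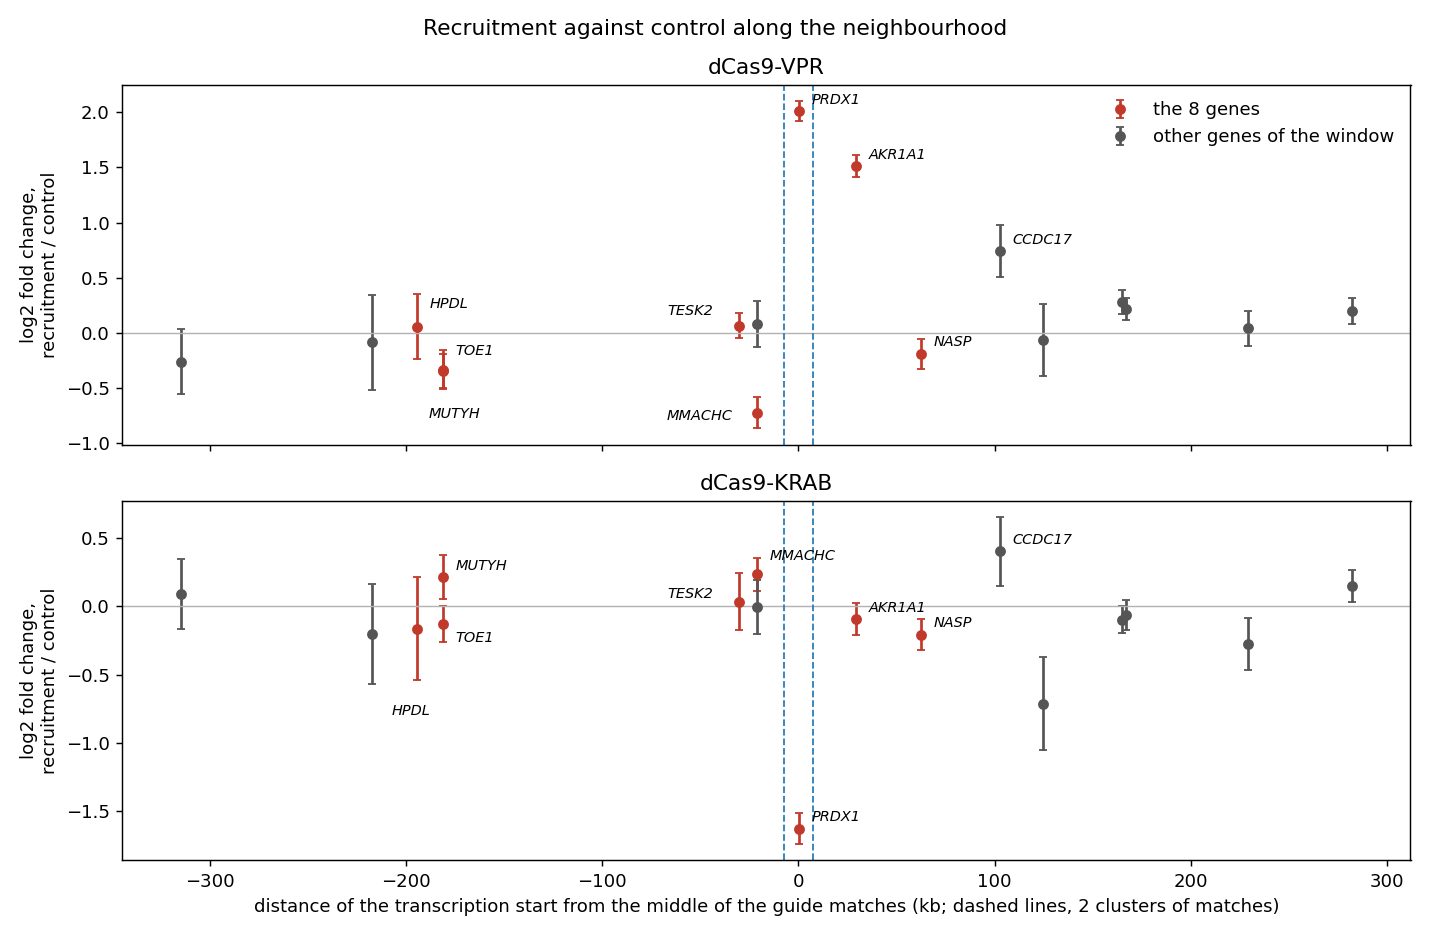
Log2 fold change of recruitment against control (error bars, SE) for the 17 genes of the window in the count table, by the distance of their transcription start from the middle of the guide matches in kb, with the activator above and the repressor below. PRDX1 departs from 0 with both fusions (2.01 and -1.63), AKR1A1 with dCas9-VPR (1.51 against -0.09), and MMACHC below 0 with dCas9-VPR (-0.72).

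Promoter sequences were looked up in RefSeq for GRCh38.p14 (250 bases before and 50 after the start) and were found for 7 of the 8 genes, all but PRDX1. Those of AKR1A1 and MMACHC are shown because these genes lay on opposite sides of control with dCas9-VPR, with motifs in capitals. The AKR1A1 promoter, chr1:45550576-45550875 on the plus strand, holds the E-box CACGTG, which on either strand was present in 7.26% of 35116 promoters of that length. The MMACHC promoter, chr1:45500050-45500349 on the plus strand, holds CCAAT, present in 34.6%, as do promoters of MUTYH, TOE1, TESK2 and NASP. The TESK2 promoter holds the E-box too, and TESK2 overlapped between the groups with both fusions. The antioxidant motif TGACNNNGC was in neither of the printed promoters, in that of HPDL and in 1 of MUTYH, and in 13.3% of all. A match of letters is a description and not a site of binding.
AKR1A1: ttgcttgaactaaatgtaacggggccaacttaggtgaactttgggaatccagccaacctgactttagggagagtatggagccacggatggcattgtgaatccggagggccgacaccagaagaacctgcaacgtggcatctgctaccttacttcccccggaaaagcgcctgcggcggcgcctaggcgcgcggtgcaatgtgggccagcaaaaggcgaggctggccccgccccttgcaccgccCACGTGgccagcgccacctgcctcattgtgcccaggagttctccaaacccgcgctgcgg
MMACHC: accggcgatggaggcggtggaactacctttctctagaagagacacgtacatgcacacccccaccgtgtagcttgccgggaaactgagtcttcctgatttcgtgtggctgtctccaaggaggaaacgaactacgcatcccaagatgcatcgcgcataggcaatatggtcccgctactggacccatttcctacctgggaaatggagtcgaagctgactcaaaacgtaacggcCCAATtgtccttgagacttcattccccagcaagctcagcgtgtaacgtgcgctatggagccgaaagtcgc

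The lines without recruitment were compared next. The contrast between the control arrays was not itself used in the choice of genes. Its libraries were the controls in the comparisons on which PRDX1 was selected, and their spread entered those comparisons. For PRDX1 the contrast is therefore a description, and the counts over the 8 genes include it. Between the control arrays with dCas9-VPR, none of the 8 genes was called, against 5.24% of the 16673 genes tested (874 genes). The smallest adjusted p among the 8 was 0.39 in edgeR's quasi-likelihood test, for NASP. The same count was 0 of 8 at an unadjusted p under 0.05 and by DESeq2's Wald test. PRDX1 differed by a log2 fold change of 0.06 (SE 0.10) and AKR1A1 by -0.04 (SE 0.12). With dCas9-KRAB none of the 8 was called either, against 0.612% of all (102 genes), with 0 of 8 at an unadjusted p under 0.05 and by DESeq2. PRDX1 was lower with LTR5HS Sa than with nontarget Sp by -0.16 (SE 0.10), and HPDL had the largest difference of the 8, -0.70 (SE 0.35, adjusted p = 0.50). With the replicate number as a block, 2269 and 785 genes were called with the 2 fusions, and none of the 8 was among them. Whether the difference between the arrays depended on the fusion was tested for each of the 8 genes, and none passed, with adjusted p from 0.30 for HPDL (1.09, SE 0.45) to 0.99 in edgeR's quasi-likelihood test. The unadjusted p was under 0.05 for HPDL alone, at 0.0308.

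Between the fusions, PRDX1 had 572 ± 13.5 CPM (SD, n = 4) in dCas9-VPR and 915 ± 77.3 CPM (SD, n = 4) in dCas9-KRAB control lines, a log2 fold change of -0.66 (SE 0.07). These libraries were also the controls in the comparisons on which PRDX1 was selected, so its difference is given without a test. Of the 7 genes beside it, 4 differed, against 59.1% of the 16673 genes tested (9855 genes), a share near that of all genes. AKR1A1 was lower with dCas9-VPR by -0.62 (SE 0.09, adjusted p = 7.71e-05 in edgeR's quasi-likelihood test), NASP by -0.54 (SE 0.09, adjusted p = 0.000297) and MUTYH by -0.63 (SE 0.13, adjusted p = 0.00135). For PRDX1, AKR1A1 and NASP all 4 dCas9-VPR control libraries were below all 4 of dCas9-KRAB, and the same was so for MUTYH. HPDL was the exception in direction, with 2.56 ± 0.64 CPM in dCas9-VPR and 0.832 ± 0.235 CPM in dCas9-KRAB controls, 3.15-fold higher (log2 fold change 1.66, SE 0.22, adjusted p = 4.84e-05). These 4 calls were made in every alternative run, and the summed level of the embryonal carcinoma markers also differed between these lines, at 1040 to 1670 CPM against 4050 to 4930 CPM. The part of that level in these differences was not tested. In the study, the arrays were added to a parent line made for each fusion. The 4 control libraries of a fusion are thus replicates of LTR5HS Sa and nontarget Sp lines from the same parent. The fusion cannot be told apart from its parent line.

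MMACHC and TESK2 were not called between the fusions, with log2 fold changes of -0.13 (SE 0.10, adjusted p = 0.27) and -0.03 (SE 0.16, adjusted p = 0.90). TOE1 had 0.27 (SE 0.12, adjusted p = 0.0727) and was called in 5 of 19 alternatives, among them the replicate block, with an adjusted p of 0.0455.

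**Figure D4:**
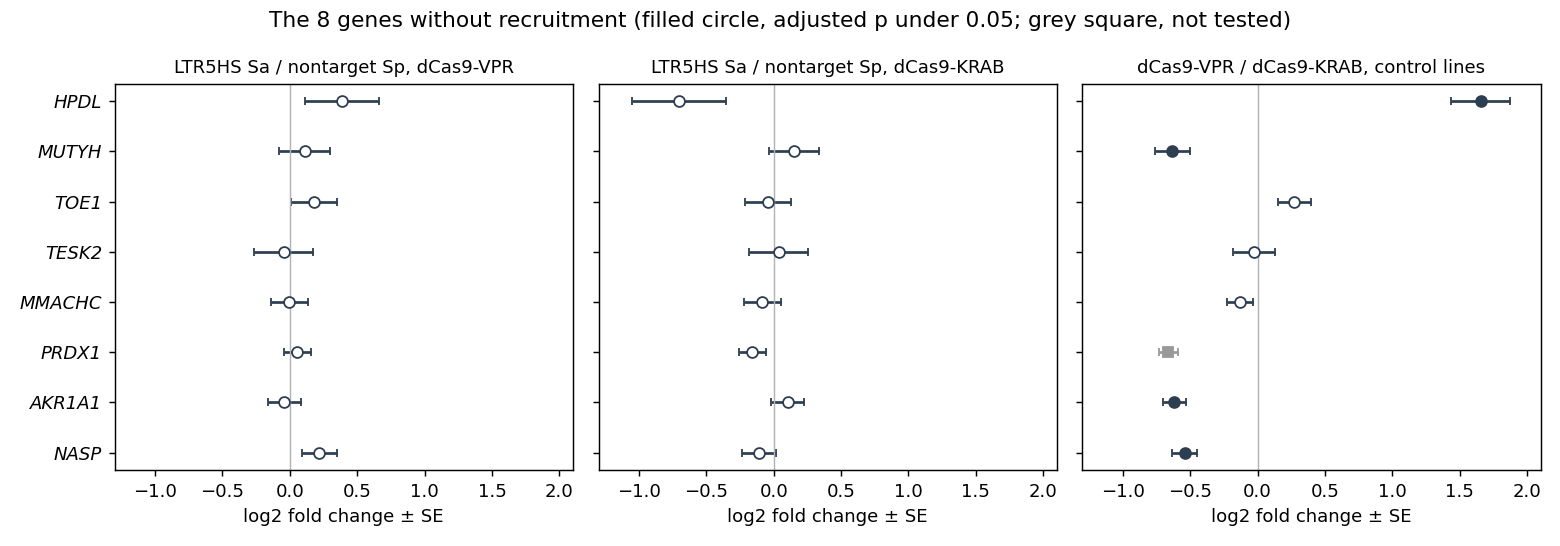
Log2 fold changes (error bars, SE) of the 8 genes between lines without recruitment, for LTR5HS Sa against nontarget Sp with each fusion and for dCas9-VPR against dCas9-KRAB, with filled circles where the adjusted p was under 0.05 and a grey square for PRDX1 between the fusions, which was not tested. No circle is filled between the control arrays, while between the fusions HPDL lies to the right (1.66) and AKR1A1, NASP and MUTYH to the left (-0.63 to -0.54), with PRDX1 at -0.66.

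Likeness to PRDX1 was measured as Pearson's r of log2 CPM over the 12 libraries, among 15145 genes tested with both fusions, and is a description of libraries that share their arrays. The 5 most alike were SERPINB9, ITLN2, SMIM24, MMP24 and FA2H, with r between 0.985 and 0.988. All of them had positive log2 fold changes with dCas9-VPR (2.70 to 4.86) and negative ones with dCas9-KRAB (-4.25 to -1.96). They were picked by r over libraries that include those with recruitment, so these directions follow from the choice and are no separate result. AKR1A1 was the most alike of the other 7 genes of the interval, with r = 0.74 and rank 737. MMACHC was at the opposite end, with r = -0.83 and rank 15059, and MUTYH had r = -0.54. NASP, which starts 55.1 kb from the matches, had r = -0.26.

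The genes that work with PRDX1 were taken from a list of 15 other genes of the thioredoxin and peroxiredoxin system. With dCas9-VPR recruitment 1 rose, 3 fell and 11 did not pass, so that 4 of 15 were called against 28% of all genes tested, with a median log2 fold change of 0.00366 against -0.0189 for all genes tested. PRDX4, the peroxiredoxin of the endoplasmic reticulum, rose from 63.9 to 71.7 CPM in control to 119 and 147 CPM with recruitment (log2 fold change 0.98, SE 0.11, adjusted p = 0.000395). PRDX2, its cytosolic paralog, fell by 0.61 (SE 0.11, adjusted p = 0.00506), mitochondrial PRDX3 fell by 0.57 (SE 0.13, adjusted p = 0.0108), and SRXN1, the sulfiredoxin that repairs overoxidised peroxiredoxins, fell by 0.62 (SE 0.12, adjusted p = 0.00548), all on the log2 scale in edgeR's quasi-likelihood test. PRDX2 and SRXN1 did not pass without dCas9-VPR LTR5HS Sp replicate 2 (adjusted p = 0.0574 and 0.0704), nor PRDX3 without either recruitment library (up to 0.11). None of the 15 passed with dCas9-KRAB recruitment, against 2.77% of all, where the median was 0.138 and SRXN1 had 0.42 (SE 0.15).

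NRF2 is the transcription factor of the oxidative response, and 14 of a list of NRF2 and its textbook targets were tested. With dCas9-VPR 4 rose and 2 fell, 6 of 14 against 28% of all genes tested (median -0.11). HMOX1, heme oxygenase, rose from 18.1 to 20.1 CPM to 38.9 and 40.0 CPM (log2 fold change 1.04, SE 0.11, adjusted p = 0.000334). PGD, of the pentose phosphate pathway, rose by 0.70 (adjusted p = 0.00175) and the quinone reductase NQO1 by 0.71 (adjusted p = 0.0135). TKT, transketolase of the same pathway as PGD, fell by 0.73 on the log2 scale (SE 0.09, adjusted p = 0.000535). Without dCas9-VPR LTR5HS Sp replicate 1 the NQO1 adjusted p was 0.17. None passed with dCas9-KRAB, against 2.77% of all (median 0.0781).

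Among 11 other aldo-keto reductases, the family of AKR1A1, 8 were tested with dCas9-VPR and 1 rose, against 28% of all genes called, while 7 were tested with dCas9-KRAB, where 1 rose and 1 fell, against 2.77% called. AKR1B15 had 1.70 and 3.80 CPM with dCas9-VPR recruitment and 0 to 0.177 CPM in control. It passed the filter on low counts only through the recruitment libraries, so its call is a description and is given without a p-value. AKR1B10 had 55.1 and 63.8 CPM with dCas9-KRAB recruitment and 2.48 to 6.33 CPM in control, a log2 fold change of 4.08 (SE 0.30, adjusted p = 7.87e-05). AKR1B10 and AKR1B15 are close paralogs whose reads may be split between them. AKR1E2 had 0.449 and 0.472 CPM with dCas9-KRAB recruitment and 1.77 to 2.66 CPM in control. It passed the filter only through the control libraries, so its call is a description as well. The medians were -0.0728 and 0.0796.

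For MMACHC, 15 of 17 genes of cobalamin uptake and use were tested. With dCas9-VPR 2 rose and 2 fell, 4 of 15 against 28% of all genes tested (median -0.0676), and none passed with dCas9-KRAB, against 2.77% (median 0.102). TCN2, the transport protein of blood cobalamin, fell by 1.16 on the log2 scale (SE 0.29, adjusted p = 0.0185), and MTRR, which reactivates methionine synthase, fell by 0.45 (SE 0.11, adjusted p = 0.0185). CD320, the receptor for transcobalamin, had 0.68 (SE 0.19, adjusted p = 0.031) and MTR, methionine synthase, 0.39 (SE 0.13, adjusted p = 0.0498). The calls of TCN2 and MTRR were lost without either recruitment library (adjusted p up to 0.14), that of CD320 in 7 of 16 alternatives and that of MTR in 9.

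Base excision repair, the pathway of MUTYH, held 16 tested genes, of which none rose and 3 fell with dCas9-VPR, against 28% of all genes called in either direction (median -0.123), and none passed with dCas9-KRAB, against 2.77% (median -0.00339). NEIL3, a glycosylase, fell by 1.08 on the log2 scale (SE 0.20, adjusted p = 0.00457), and the call was lost without dCas9-VPR LTR5HS Sp replicate 1 (adjusted p = 0.0578). LIG3, a ligase, had -0.43 (adjusted p = 0.0286) and TDG, thymine glycosylase, -0.37 (adjusted p = 0.0458), and their calls were lost in 8 and 11 of 16 alternatives. Coenzyme Q synthesis, the pathway of HPDL, held 14 tested genes, of which none rose and 4 fell with dCas9-VPR, again against 28% (median -0.106), and none passed with dCas9-KRAB, against 2.77% (median 0.000286). COQ10A fell by 0.87 (adjusted p = 0.00632) and COQ2 by 0.80 (adjusted p = 0.00866), with PDSS1 (-0.59, adjusted p = 0.0207) and PDSS2 (-0.59, adjusted p = 0.0191), which build the side chain. Without dCas9-VPR LTR5HS Sp replicate 1 none of these 4 passed, with adjusted p up to 0.17.

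The remaining lists belong to TESK2, TOE1 and NASP, and their counts stand against the same 28% of all genes called with dCas9-VPR and 2.77% with dCas9-KRAB. Of 8 cofilin kinases, phosphatases and cofilins, 1 rose with dCas9-VPR, LIMK2 (log2 fold change 0.49, SE 0.11, adjusted p = 0.0131), a cofilin kinase, whose adjusted p was 0.15 without dCas9-VPR LTR5HS Sp replicate 1, and the list medians were 0.0685 with dCas9-VPR and 0.0888 with dCas9-KRAB. Of 10 deadenylases, NOCT fell by 0.96 with dCas9-VPR (SE 0.14, adjusted p = 0.00155), with list medians of -0.124 and -0.188. PNLDC1, called higher, had 0.0443 to 0.249 CPM in control and 1.43 and 2.02 CPM with dCas9-VPR recruitment. It passed the filter on low counts only through the recruitment libraries, so its call is a description. Of 18 genes of histone chaperones and their partners, none rose and 4 fell with dCas9-VPR (4 of 18 against 28% of all), with list medians of -0.201 and -0.0584. CHAF1B, of the chromatin assembly factor, fell by 1.22 on the log2 scale (SE 0.13, adjusted p = 0.000239), from 30.6 to 34.7 CPM to 13.5 and 14.0 CPM. ASF1B fell by 0.67 (adjusted p = 0.00426), SSRP1 by 0.55 (adjusted p = 0.0116) and CHAF1A by 0.51 (adjusted p = 0.0188), and without dCas9-VPR LTR5HS Sp replicate 2 none of these 3 passed (adjusted p up to 0.0882). With dCas9-KRAB none of the genes of these 3 lists passed. Over the 8 lists without a call by edgeR with dCas9-KRAB, 11 of 110 tested genes had an unadjusted p under 0.05, and DESeq2's Wald test called 2.

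Markers of cell types moved with dCas9-VPR recruitment beside these genes. COL1A1, a mesenchymal collagen, had 2870 and 2990 CPM against 60.3 to 90.1 CPM in control (log2 fold change 5.41, SE 0.17, adjusted p = 1.56e-06), while COL1A2, which marks the same cells, was at 0.266 CPM or less in every library. The mesenchymal markers COL3A1 (0.95, SE 0.58) and TWIST1 (1.08, SE 0.65) had positive log2 fold changes and were not called. SOX2 fell by 1.24 on the log2 scale (SE 0.25, adjusted p = 0.00735) and DNMT3B by 0.62 (SE 0.14, adjusted p = 0.0116), the 2 called of 9 embryonal carcinoma markers. Of the other 7, POU5F1 (0.43), NANOG (0.44), SALL4 (0.06) and DPPA4 (0.07) had positive log2 fold changes and LIN28A (-0.20), TDGF1 (-0.27) and TNFRSF8 (-0.89) negative ones, none past the threshold. The summed level of the 9 was 960 to 981 CPM against 1040 to 1670 CPM in control. GATA3, of 4 trophoblast markers, rose with dCas9-VPR by 1.48 (adjusted p = 0.00617) and with dCas9-KRAB by 1.47 (adjusted p = 0.0259). The other listed markers, CGA, CGB5 and KRT7, were at most 0.0571, 0.368 and 0.696 CPM. The neural marker TUBB3 had -0.70 (adjusted p = 0.0344), at 110 to 130 CPM against 149 to 237 CPM in control. The summed level of 4 neural markers, 112 to 131 CPM against 152 to 242 CPM, was nearly all TUBB3, and NEUROD1 was at most 0.0526 CPM. PAX6 (-0.91, SE 0.36) and SOX1 (-1.08, SE 0.80) were negative too and were not called. None of the 4 yolk sac markers was called, and only 1 could be tested, with dCas9-VPR (0 at an unadjusted p under 0.05 and by DESeq2). Without dCas9-VPR LTR5HS Sp replicate 1 the dCas9-VPR calls of SOX2, DNMT3B, GATA3 and TUBB3 were lost (adjusted p up to 0.12), and without dCas9-KRAB nontarget Sp replicate 2 or either recruitment library that of GATA3 with dCas9-KRAB (up to 0.25). With dCas9-KRAB the embryonal carcinoma markers summed to 3990 to 4430 CPM with recruitment and 4050 to 4930 CPM in control, ranges that overlapped. None of the 9 was called there, and their median log2 fold change was 0.0433, while PRDX1 was lower with recruitment. The part of these markers in the values of PRDX1, AKR1A1 and MMACHC was not tested.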

How the data were processed

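RNA-seq of 12 libraries was analysed from the gene table deposited by the authors, who had trimmed reads with cutadapt 1.8.1, aligned them with HISAT2 2.1.0 to hg38 and counted them with featureCounts 1.4.6-p2. The deposited values are raw counts per gene, without normalization, beside a gene length in bp used for CPM per kb. Neither the annotation nor the strand option of the counting is given in the sources used here.

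The 8 genes, the pathway lists and the tests were chosen with earlier results of these data known. The groups come from the sample labels. Genes were tested with edgeR 4.0.16 (R 4.3.3; filterByExpr, TMM, quasi-likelihood F-test, Benjamini-Hochberg over all genes tested, threshold 0.05), with 2 recruitment against 4 control libraries for each fusion. Control arrays and fusions were compared in a fit of all 12 libraries with 1 group per line. SE is the absolute log2 fold change over the root of F. The p-values come from setting the difference between groups against the spread between libraries of a group. With recruitment against control, that spread also holds the difference between the pooled LTR5HS Sa and nontarget Sp lines. Recruitment was 1 line for each fusion, so it cannot be told apart from other traits of that line. Scripts were tested on simulated data. Alternatives were DESeq2 1.42.0, its size factors, other filters, single control arrays, leaving out each library and the replicate number as a block. A run on counts thinned to the lowest total was chosen after seeing the data. Replicate numbers paired the libraries: replicate differences correlated between arrays across genes with Pearson's r of 0.203 to 0.425. CPM are printed without their counting error, which is present at every level. The stated floor is a conversion of 3 counts to CPM.

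Named genes are the 8, the window's called genes and CCDC163P between them, up to 4 called genes per list with the largest absolute log2 fold change, and the 5 most like PRDX1. Markers were treated as a list. Other files were not used here, and guide sequences came from the study's supplement.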

Additional observations from a re-analysis of the deposited data

Results flagged for a closer look

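PRDX1 and MMACHC were marked because all recruitment libraries lay on one side of control with dCas9-VPR and on the other side with dCas9-KRAB. Of all genes tested, 50% did not overlap with dCas9-VPR and 23.1% with dCas9-KRAB. The share on opposite sides was not counted. PRDX1 was selected on this comparison and MMACHC was not called with dCas9-KRAB, so the mark is a description. The PRDX1 log2 fold change was 2.01 with dCas9-VPR and -1.63 with dCas9-KRAB. For MMACHC the values were -0.72 and 0.24, opposite in order to those of PRDX1. The difference between the fusions was not tested for these genes. No control library stood apart by Dixon's ratio in any of the 16 groups of 4 control libraries, formed by the 8 genes and 2 fusions, a check that by chance marks about 1 group in 20.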

How the results depend on the processing

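Of 239 recomputed log2 fold changes of the 8 genes in recruitment against control, 231 moved by no more than 1 SE and 8 by more, and no called value changed sign. The range of PRDX1 was 1.90 to 2.11 with dCas9-VPR and -1.71 to -1.55 with dCas9-KRAB, and that of AKR1A1 was 1.46 to 1.56 with dCas9-VPR. With recruitment against control, leaving out single libraries gave 2299 to 4626 called genes with dCas9-VPR and 214 to 441 with dCas9-KRAB (285 without the deepest library), and 234 to 949 and 37 to 131 between the control arrays. The threshold of 0.01 left 2517, 236, 337 and 43 calls in the same order. With dCas9-KRAB recruitment, DESeq2's Wald test called 716 genes and the fit of all 12 libraries 739. Between the control arrays with dCas9-KRAB, DESeq2's Wald test called 203 genes, edgeR without a filter 263, edgeR with a minimum of 10 counts per library 30 and the 4 control libraries alone 226. The replicate block gave 4961 and 507 calls for recruitment, 2269 and 785 between the control arrays and 11157 between the fusions. Under the pairing, no call of the 8 genes changed except that of TOE1 between the fusions. Genes of the 8 with recruitment and control not overlapping with dCas9-VPR numbered 3 with DESeq2 size factors and 6 with raw library totals. The share of all genes tested, 50%, was counted with TMM alone, so nothing is read from these 2 counts. Of 29 named pathway genes, 9 were called in every alternative that tested them and 20 lost the call in at least 1. AKR1B15 and PNLDC1, among the 9, were tested in 15 alternatives and passed the main filter only through the recruitment libraries. The causes were not tested. The lowest count of any of the 8 genes was 9, for HPDL.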
